A study of Homo sapiens with 6 samples.

Results

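Chemokine ligand genes encode small secreted proteins that guide white blood cells, and they were examined here in OCI-AML3 cells, an acute myeloid leukaemia cell line that carries a mutation in nucleophosmin. Members were the probe sets naming 1 gene whose symbol is CCL or CXCL followed by digits, or CX3CL1, XCL1 or XCL2. The rule found 53 of 54613 probe sets, which name 36 of 19775 genes. They comprise 20 CC, 14 CXC, 1 CX3C and 1 XC ligand. For 12 genes there were several probe sets, and unless stated otherwise a gene is given by whichever of its probe sets had the highest mean across all 6 arrays. A further 4 probe sets name more than one gene, so CCL3, CCL14, CCL15 and XCL2 were not analysed here.

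Control cells received DMSO, the solvent, and treated cells received 1 μM SAHA (Vorinostat), an inhibitor of histone deacetylases, with RNA taken after 24 h in both groups. Each group holds 3 samples with the replicate numbers 1, 2 and 3, and each sample was hybridised to 1 Affymetrix HG-U133 Plus 2.0 array. Whether samples of the same number form pairs is not stated. Differences within numbers 2 and 3 rest on the sample titles alone. A single cell line was used, and separate cultures are not stated in the labels or methods, so each p-value covers just the spread among these 6 samples, which may be technical. RNA was taken from whole cultures, in which fewer cells making a transcript and less of it per cell cannot be told apart. Values are log2 values as deposited, a difference is Vorinostat minus DMSO in log2 units, and with 3 arrays a group each one is known with limited precision. Signal differed more between arrays than between groups. The share of probe sets above a log2 value of 3, a level chosen with these data known, was 15.8% and 14.9% on the number 1 arrays of DMSO and Vorinostat, and between 5.06% and 6.83% on the other 4. Among the myeloid genes listed as a check of the label, LYZ and CEBPA lay above 3 on all 6 arrays, whereas MPO, SPI1, CSF1R, CD14, ITGAM and ANPEP did so on none.

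Chemokines bind G protein-coupled receptors on leukocytes and are grouped by the spacing of the first cysteines in their sequence. CXC ligands with a glutamate-leucine-arginine motif before these cysteines, such as CXCL8, draw neutrophils through CXCR1 and CXCR2. CXCL9, CXCL10 and CXCL11 are induced by interferon and draw activated T cells, and CC ligands act mainly on monocytes, T cells and eosinophils. Many inflammatory chemokine genes are switched on by the transcription factors NF-κB and AP-1, and myeloid cells, leukaemic ones included, are a known source of CXCL8.

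The stretches before the start sites of the CXC genes are shown because they hold the letters read by these factors, in genes with high and with low array values. Of the 36 genes, 26 had an entry in the RefSeq promoter table (build GRCh38.p14), of which the 250 bases before each start were searched on both strands. CCL2, CCL4, CCL5, CCL11, CCL16, CCL17, CCL21, CX3CL1, CXCL16 and XCL1 had no entry. Below, the whole stretch of CXCL8 (chr4:73740319-73740568, plus strand) is followed by 89 bases of CXCL1 (chr4:73869275-73869363, plus strand), CXCL2 (chr4:74099224-74099312, minus strand) and CXCL11 (chr4:76036097-76036185, minus strand). Each is written 5′ to 3′, and capitals mark GGAATTTCC, an NF-κB motif, or its reverse complement, and TGACTCA, an AP-1 motif.
CXCL8: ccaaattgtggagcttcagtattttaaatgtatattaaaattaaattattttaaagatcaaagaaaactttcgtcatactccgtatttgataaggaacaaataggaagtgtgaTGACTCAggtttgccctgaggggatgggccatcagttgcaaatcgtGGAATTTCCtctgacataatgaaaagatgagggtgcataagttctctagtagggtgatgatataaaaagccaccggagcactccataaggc
CXCL1: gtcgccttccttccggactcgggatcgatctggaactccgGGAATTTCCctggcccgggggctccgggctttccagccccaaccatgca
CXCL2: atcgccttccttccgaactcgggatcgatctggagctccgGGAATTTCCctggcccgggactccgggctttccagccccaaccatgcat
CXCL11: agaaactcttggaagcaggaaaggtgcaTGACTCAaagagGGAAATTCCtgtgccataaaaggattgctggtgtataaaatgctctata

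The NF-κB letters were found in 8 of the 26 promoters, those of CXCL1, CXCL2, CXCL3, CXCL5, CXCL6, CXCL8, CXCL10 and CXCL11, against 0.428% of 27305 promoters in the table. TGACTCA was found in 5 of them, CCL24, CCL27, CXCL8, CXCL11 and CXCL14, against 4.16% of all promoters. Both motifs together occurred in CXCL8 and CXCL11. In CXCL8 the AP-1 letters began 137 bases and the NF-κB letters 91 bases before the start, and neither overlapped the other. CXCL1 and CXCL2 are close copies, with the NF-κB letters beginning 78 and 77 bases before the start. These are matches of letters in a fixed window, and binding was not measured on these arrays.

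CXCL8, CCL5 and CXCL1 were the 3 ligand genes with a group mean above a log2 value of 3. That is 8.33% of the 36 genes, against 19.6% of all genes. CXCL8 lay above 3 on all 6 arrays and was the 1 ligand gene to do so, against 5.84% of all genes. CCL2, CXCL11 and CXCL12 exceeded 3 on a single Vorinostat array each. The remaining 30 genes (83.3%, against 66.3% of all genes) did not exceed 3 on any array, with values between 1.18 and 2.54. As probe sets differ in how strongly they bind, the order of values between genes is no order of transcript abundance.

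Under Vorinostat the difference was positive in every replicate number for CXCL8 and CCL5, and for CCL5 on each of its probe sets. In the limma fit used here neither gene passed the study's threshold, set at over 2-fold together with an unadjusted p below 0.05. It was met by 0.0165% of all probe sets in the higher and 0.0275% in the lower direction. The paper reports far more genes at this threshold from its own analysis, with CXCL8 and CCL2 on its increasing list. The fit used here did not reproduce those calls. CXCL8, the neutrophil chemokine formerly named IL8, had values of 7.48, 5.93 and 6.35 with DMSO and 8.94, 6.09 and 6.67 with Vorinostat in replicates 1, 2 and 3 on probe set 202859_x_at. The groups overlapped, and within each group the number 1 array was the highest. Means were 6.59 ± 0.80 (SD, n = 3) and 7.23 ± 1.51 (SD, n = 3), with a difference of 0.65 (standard error 0.851, 95% interval -1.49 to 2.78, adjusted p = 1 from limma). The differences within numbers 1, 2 and 3 were 1.46, 0.15 and 0.32, so most of the mean came from number 1. Without Vorinostat replicate 1 the difference turned to -0.21, but that fit keeps DMSO replicate 1, the highest DMSO array. Without both arrays of number 1 the difference was 0.24. A fit with the replicate number as a block gave a standard error of 0.300 (unadjusted p = 0.0951, adjusted p = 0.887 from limma).

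The second CXCL8 probe set, 211506_s_at, gave 3.57, 2.82 and 2.34 with DMSO and 7.71, 2.83 and 2.96 with Vorinostat. Here 1 array, Vorinostat replicate 1, stood far above the other 5. Its mean difference was 1.59 (standard error 1.415), with 4.14, 0.01 and 0.62 within the numbers. Both probe sets thus had positive differences in all 3 numbers, but they measure the same samples and are not separate replicates. The study lists CXCL8, as IL8, among the increasing genes it chose on these samples, so its direction on these arrays is not independent evidence. The study also reports RQ-PCR with biological replicates for its top genes in each direction, with the same directions as the arrays. Those genes are named in a figure that was not read here.

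CCL5, also named RANTES, draws T cells and monocytes through CC receptors such as CCR1. Probe set 1555759_a_at gave 5.18, 3.94 and 2.29 with DMSO and 7.43, 4.01 and 4.40 with Vorinostat. DMSO replicate 3 was the lowest of the 6 arrays and Vorinostat replicate 1 the highest, and the groups overlapped. Means were 3.80 ± 1.45 (SD, n = 3) and 5.28 ± 1.87 (SD, n = 3), and the difference of 1.48 (standard error 1.178, 95% interval -1.48 to 4.44, adjusted p = 1 from limma) was the most positive of the 36 genes. Within numbers 1, 2 and 3 it was 2.25, 0.07 and 2.12. Probe set 1405_i_at gave 5.23, 2.21 and 1.94 with DMSO and 7.22, 2.56 and 2.77 with Vorinostat. Probe set 204655_at gave 5.24, 2.30 and 1.88 with DMSO and 6.60, 2.74 and 2.87 with Vorinostat. On all 3 probe sets the Vorinostat value was above the DMSO value of the same number. The probe sets measure the same 6 samples and are not separate replicates. Of all genes, 13% were higher in each number.

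A fit with the replicate number as a block takes same-numbered arrays as pairs, which for numbers 2 and 3 rests on the titles alone. In that fit CCL5 passed the threshold of the study (difference 1.48, standard error 0.499, unadjusted p = 0.0394, adjusted p = 0.887 from limma). It was then 1 of 36 ligand genes past the threshold in the higher direction, against 0.197% of all genes, and 0 of 36 passed it in the lower direction, against 0.632%. The unadjusted p from limma with the block was 0.037 for 1405_i_at and 0.00981 for 204655_at. In that fit 3 of 53 ligand probe sets (5.66%) had an unadjusted p under 0.05, against 2007 of 54613 probe sets in all. The 3 are all of CCL5 and read the same samples, so they count as 1 gene. After quantile normalisation, which gives the arrays the same distribution, the 3 Vorinostat values of CCL5 were 5.56, 5.47 and 5.21 and all lay above the DMSO values of 3.59, 4.44 and 2.78. The difference was then 1.81 (standard error 0.419, adjusted p = 1 from limma). CCL5 again was the 1 ligand gene past the threshold, against 0.172% of all genes higher and 0.273% lower, and the 1 with the groups apart and higher, against 3.28%. On the deposited values the size depended on single arrays, as it was 0.41 without Vorinostat replicate 1, 0.72 without DMSO replicate 3 and 2.17 without DMSO replicate 1. It was 1.09 without both arrays of number 1.

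**Figure D1:**
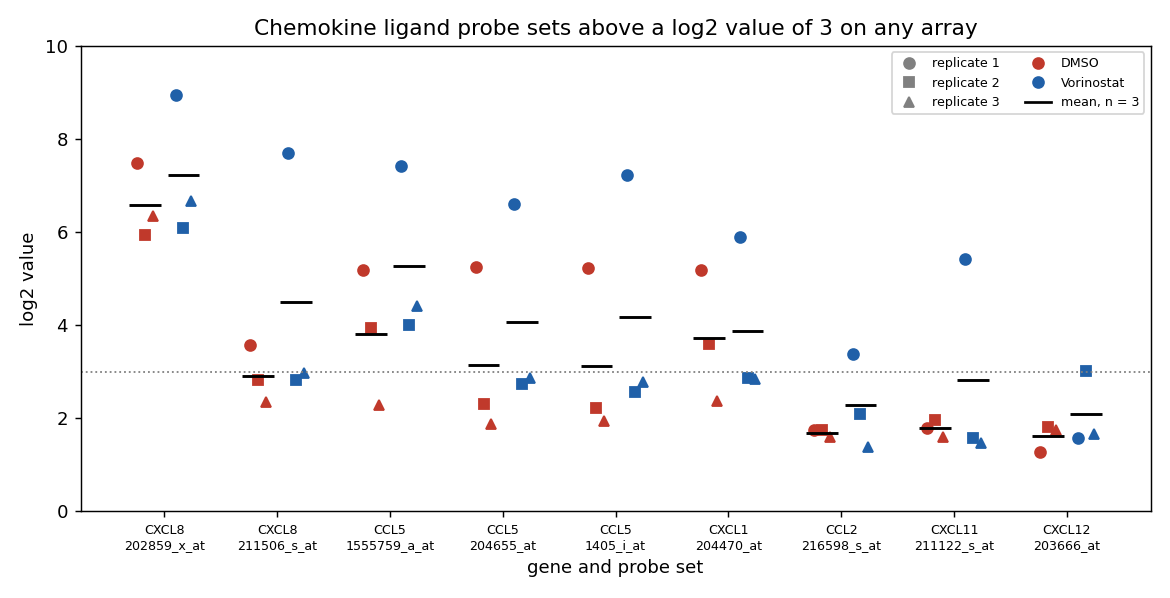
Log2 values of the 9 ligand probe sets that exceeded a log2 value of 3 on any array. Points are single arrays in red (DMSO) or blue (Vorinostat), the marker shows the replicate number, black bars are means of n = 3 and the dotted line marks 3. Vorinostat replicate 1 is the highest point for CXCL8, CCL5, CXCL1, CCL2 and CXCL11, at 5.42 for CXCL11 where the other 5 arrays lie between 1.48 and 1.96.

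CXCL1, a neutrophil chemokine of the same motif class as CXCL8, did not follow the replicate numbers in 1 direction. It had 5.19, 3.60 and 2.37 with DMSO and 5.90, 2.86 and 2.85 with Vorinostat. The groups overlapped over nearly their whole range. The difference was 0.15 (standard error 1.121, 95% interval -2.67 to 2.97, adjusted p = 1 from limma), with 0.71, -0.74 and 0.48 within the numbers. Without Vorinostat replicate 1 it was -0.86 and without DMSO replicate 3 it was -0.53. Without both arrays of number 1 it was -0.13.

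The other ligands of the motif class were low on every array. In the RefSeq gene order on chromosome 4, CXCL8 is followed by CXCL6, PF4V1, CXCL1, PF4, PPBP, CXCL5, CXCL3 and CXCL2. Of these 9 neighbours, CXCL8 and CXCL1 were the 2 that exceeded 3 on any array. PF4, PF4V1 and PPBP are platelet-type CXC ligands whose symbols lie outside the rule, and their differences were 0.08, 0.14 and 0.12. CXCL2, CXCL3, CXCL5 and CXCL6 had differences of -0.03, -0.08, 0.04 and 0.01. The CXCL2 probe sets disagreed. On 1569203_at all 3 Vorinostat values, 1.24 to 1.30, lay below all 3 DMSO values, 1.38 to 1.48, whereas on 230101_at Vorinostat was higher in each number with a mean difference of 0.22. The promoter letters shown above were thus shared by members with high and with low array values.

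CCL2, a monocyte attractant that the study also lists as increasing on these samples, was near the bottom of the scale on 5 arrays. Its values were 1.74, 1.74 and 1.59 with DMSO and 3.39, 2.08 and 1.38 with Vorinostat. The highest and the lowest of the 6 values were both in the Vorinostat group. The difference was 0.59 (standard error 0.514, 95% interval -0.70 to 1.88, adjusted p = 1 from limma), with 1.65, 0.34 and -0.21 within the numbers, and 0.04 without Vorinostat replicate 1. The related monocyte attractants CCL7 and CCL8 had differences of -0.04 and -0.06, with the groups overlapping.

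Of the interferon-inducible ligands, CXCL11 had a single high value. On 211122_s_at it gave 1.79, 1.96 and 1.59 with DMSO and 5.42, 1.58 and 1.48 with Vorinostat. The mean difference of 1.04 (standard error 1.121, limma adjusted p = 1) rested on Vorinostat replicate 1 and was -0.26 without it. The second probe set of the gene, 210163_at, read 1.33 on that array and did not exceed 1.46 on any. CXCL9 and CXCL10 had differences of 0.14 and 0.26, and for CXCL10 Vorinostat replicate 1 was again the highest array with 2.11. CXCL12, which holds stem cells in the bone marrow through CXCR4, exceeded 3 on Vorinostat replicate 2 alone, with 1.57, 3.01 and 1.67 under Vorinostat and 1.28, 1.81 and 1.74 under DMSO. Its difference of 0.47 (standard error 0.433, adjusted p = 1 from limma) was 0.01 without that array, and its other probe set gave -0.14.

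On Vorinostat replicate 1, the array with the high CXCL8, CCL2 and CXCL11 values, 2 of 11 markers of other cell types exceeded 3. Of all genes, 26.2% exceeded 3 on that array. The 2 markers were COL1A2, a fibroblast collagen, with 4.98 and PECAM1, an endothelial and myeloid adhesion molecule, with 5.00. On the other 5 arrays COL1A2 lay between 2.31 and 2.72 and PECAM1 between 2.34 and 3.05. COL1A1, VWF, CD3D, MS4A1 and EPCAM had their lowest value of the 6 arrays there, and 4 of the 11 markers were higher with Vorinostat than with DMSO in number 1. The summed log2 value of the 11 markers was 24.4 on Vorinostat replicate 1 and between 20.01 and 22.05 on the other 5. CD3D, CD3E, MS4A1, HBB, EPCAM, VWF, KRT8, KRT18 and COL1A1 exceeded 3 on none, and COL1A1 is also on the increasing list that the study drew from these samples. The part of these markers in the results was not tested.

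The 30 ligands that did not exceed 3 showed small differences in both directions, between -0.14 for CCL27 and 0.39 for CXCL17. Among them CCL17 and CCL22, which act on T cells through CCR4, had 0.08 and 0.12. The eotaxins CCL11, CCL24 and CCL26, which draw eosinophils, had 0.23, 0.03 and 0.04. The lymphoid organ chemokines CCL19, CCL21 and CXCL13 had -0.12, 0.06 and 0.03. Ligands of skin and mucosa, namely CCL20, CCL25, CCL27, CCL28, CXCL14 and CXCL17, ranged from -0.14 to 0.39. CX3CL1 and CXCL16, which are made as membrane-anchored proteins, had -0.13 and 0.01. XCL1 had 0.10 and CCL4, a relative of CCL5, had 0.23. CCL1, CCL16, CCL18 and CCL23 lay between -0.07 and 0.14. Whether these probe sets read their transcript above background was not tested, as no detection calls were used.

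**Figure D2:**
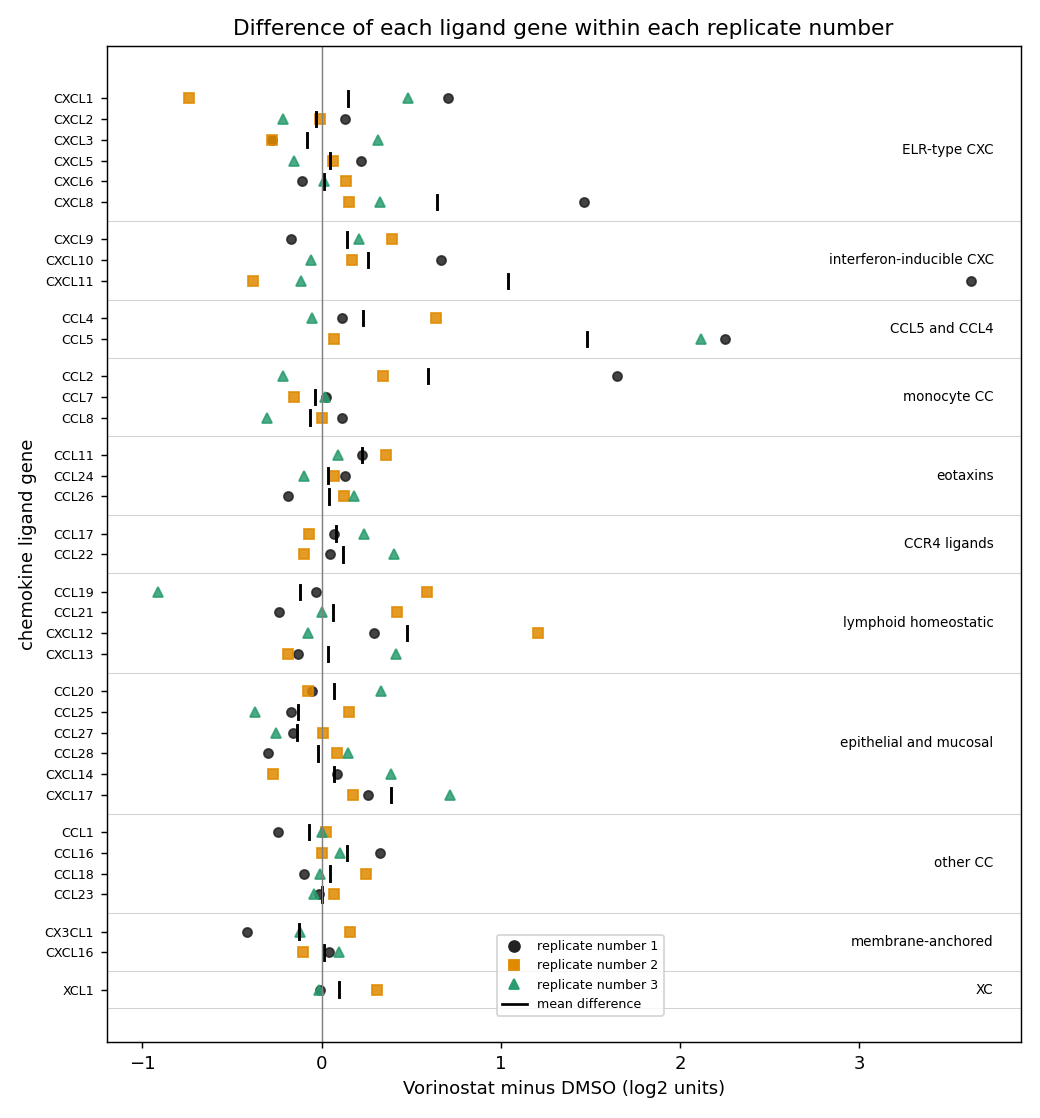
Vorinostat minus DMSO difference in log2 units of each of the 36 ligand genes within replicate numbers 1, 2 and 3 (markers), with the mean difference as a black line, ordered by the role of the ligand. CCL5 and CXCL8 have all 3 markers above 0, whereas the mean of CXCL11, 1.04, rests on number 1 alone.

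Counted over the whole set, 26 of 36 genes (72.2%) had a positive mean difference, against 46.9% of all genes. The median difference was 0.05, against -0.02 over all genes. The count was 26 with each array centred on its median and 25 (69.4%) after quantile normalisation, against 50.02% of all genes, and the medians within numbers 1, 2 and 3 were 0.04, 0.07 and 0.01, against -0.01, -0.04 and 0.03 over all genes. Positive within numbers 1, 2 and 3 were 55.6%, 69.4% and 55.6% of the ligand genes, against 48.7%, 43.9% and 54.4% of all genes, so in number 3 the ligand share was near that of all genes and the ligand median below theirs. Of the 30 low genes 20 were positive (66.7%), against 52% of all genes that did not exceed 3 on any array. Of the 12 genes with several probe sets, 3 had positive and 2 had negative differences on each of them, and 7 had both signs. Positive in each replicate number were 5 genes (13.9%), CCL5, CXCL8, CCL11, CCL16 and CXCL17, against 13% of all genes, which is near that share. On single probe sets it was 10 of 53 (18.9%), against 12.4% higher and 14.7% lower over the whole table. Negative in each number were 0 of 36, against 13.7% of all genes. That 0 covers the probe set with the highest mean of each gene. Among the other probe sets, CXCL2 1569203_at, CXCL5 207852_at and XCL1 206365_at were lower in each number.
Without the block, 0 ligand genes passed the study's threshold, against 0.0455% of all genes higher and 0.0506% lower. Unadjusted p-values under 0.05 were found for 0 of 36 genes and 0 of 53 probe sets by limma and for 0 genes by the methods' t-test, against 0.602% of all genes higher and 0.389% lower by limma. Over all 54613 probe sets, 0 passed an adjusted p under 0.05 by limma, while unadjusted p-values under 0.05 were counted for 272 higher and 273 lower. No ligand gene had the groups apart, against 2.3% of all genes higher and 1.95% lower. With 3 arrays a group, the smallest two-sided p of an exact permutation test is 0.1, and none is reported.

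Chemokine receptors, the other side of the pathway, were described for 16 genes. Their median difference was -0.03, with 6 positive and 10 negative, and 0 passed the threshold of the study. After quantile normalisation the counts were 7 and 9. CXCR4, the CXCL12 receptor, had 5.11, 4.40 and 2.62 with DMSO and 5.44, 3.04 and 2.86 with Vorinostat, with a difference of -0.27 (standard error 0.959, limma adjusted p = 1). CCR1, a CCL5 receptor named here after its values were seen, had 5.33, 2.67 and 2.11 with DMSO and 6.16, 2.16 and 2.17 with Vorinostat. In both receptors the number 1 arrays were the highest of their group and the groups overlapped.
The receptors of CXCL8 were low on every array. CXCR1 read 1.46 to 1.66 with DMSO and 1.67 to 1.92 with Vorinostat, so the groups lay apart with a difference of 0.20 (standard error 0.114, adjusted p = 1 from limma). CXCR2 had a difference of -0.09, and CCR2, the receptor of CCL2, had -0.06. CCR6, the receptor of CCL20, also had the groups apart, with 1.36 to 1.54 under DMSO and 1.21 to 1.35 under Vorinostat. ACKR1, ACKR2, ACKR3 and ACKR4 are atypical receptors that take up chemokines without G protein signalling, and CCRL2 was listed with them. These genes did not exceed 3 on any array and had a median difference of -0.04.

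Among 22 NF-κB and AP-1 genes measured, 8 were positive and 14 negative, with a median difference of -0.07. The list's median was 0.17 in number 1 and 0.12 in number 3, with 13 and 12 genes positive, and -0.20 in number 2, with 6 positive. NFKBIZ, a nuclear regulator of NF-κB targets, was the 1 gene of this list with the groups apart. NFKBIZ values were 1.99, 2.16 and 2.42 with DMSO and 3.54, 2.62 and 2.70 with Vorinostat. The NFKBIZ difference was 0.76 (standard error 0.285, unadjusted p = 0.0403, adjusted p = 1 from limma), which is under 2-fold, and both group means lay under 3. NFKBIA, the inhibitor that holds NF-κB in the cytoplasm, had 3.93, 3.03 and 2.81 with DMSO and 3.36, 2.78 and 2.07 with Vorinostat, lower in each number with a mean difference of -0.52 (standard error 0.443, limma adjusted p = 1). NFKBIA is given after its values were seen. Of the 22 genes, 4 were higher in each number, NFKBIZ, FOS, FOSB and FOSL1, against 13% of all genes. Lower in each number were 3, NFKBIA, TNFAIP3 and JUND, against 13.7% of all genes. JUN, a subunit of AP-1 that is on the study's increasing list drawn from these samples, had a difference of -0.07 with overlapping groups. The 11 housekeeping genes measured had median differences of 0.02, -1.70 and -0.24 within numbers 1, 2 and 3. The ligand medians in the same numbers were within 0.07 of 0. As 30 of the 36 ligand genes did not exceed 3 on any array, these medians say little about array signal in the higher members. The part of array signal in the results was not tested beyond the normalisations given here.

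**Figure D3:**
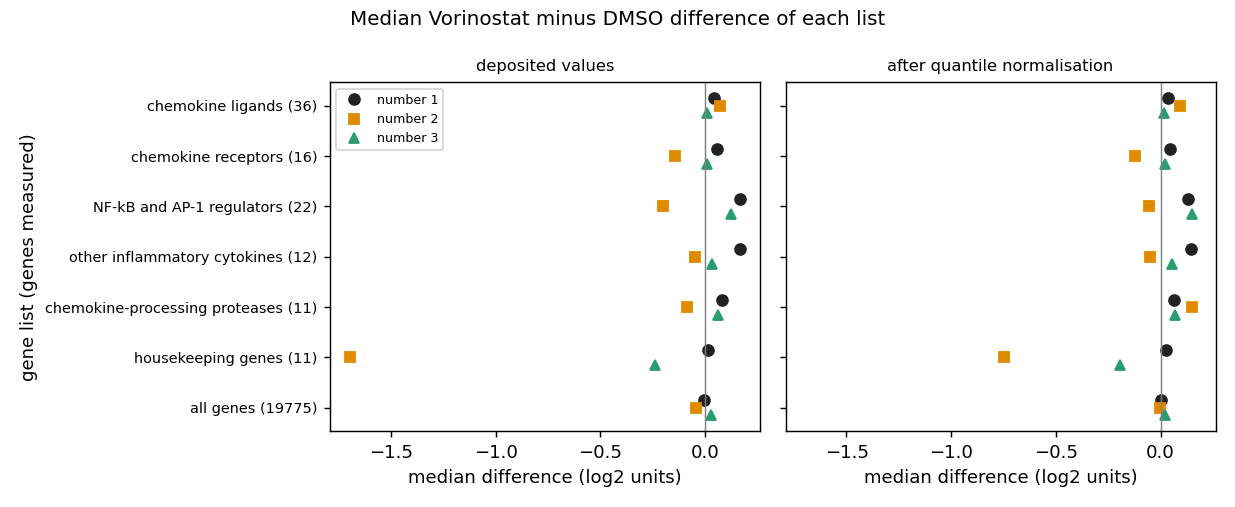
Median Vorinostat minus DMSO difference in log2 units of 7 gene lists within each replicate number, for the deposited values (left) and after quantile normalisation (right), with the number of genes measured in brackets. The housekeeping median in number 2 is -1.70 before and -0.75 after normalisation, and the ligand medians stay between 0.01 and 0.09 in both.

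The CXCL8 differences depended on the normalisation, most of all in number 2, and the part of array scaling in this was not tested. After quantile normalisation its differences within numbers 1, 2 and 3 were 1.52, 1.94 and 0.17, against 1.46, 0.15 and 0.32 before, and the mean was 1.21 (standard error 0.536, adjusted p = 1 from limma). Its normalised values were 5.47, 6.28 and 7.25 with DMSO and 6.99, 8.22 and 7.42 with Vorinostat, and the groups still overlapped. For CCL5 the normalised differences were 1.96, 1.03 and 2.43. CXCL1 kept mixed signs, with 0.66, -0.39 and 0.58.

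**Figure D4:**
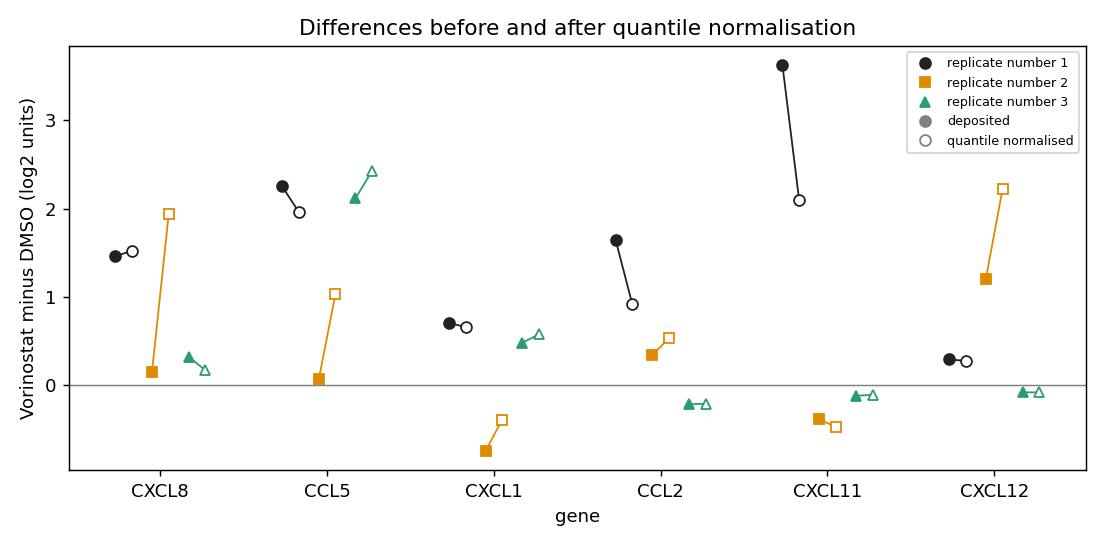
Vorinostat minus DMSO difference in log2 units within each replicate number for the 6 ligand genes that exceeded 3 on any array, as deposited (filled) and after quantile normalisation (open). In number 2 the CXCL8 difference is 0.15 before and 1.94 after, while CCL5 stays above 0 in all 3 numbers both ways.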

How the data were processed

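RNA from 6 samples of OCI-AML3 cells was hybridised to Affymetrix arrays. The authors deposited 1 table of log2 values for 54675 probe sets, with a column for each array, and the scale was read from the values (0.868 to 13.8). According to the methods of the paper, arrays were imported into Partek Genomics Suite. MAS5 and RMA appear in the submitters' processing notes without a role, so the normalisation applied is not given in the sources used here. Groups and replicate numbers were taken from the sample titles.

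Leaving out 62 control probe sets, 54613 were fitted with limma 3.58.1 in R 4.3.3 (lmFit and eBayes, Vorinostat minus DMSO, no block, no filter) with Benjamini-Hochberg adjustment over all of them. The fit was run on simulated data with independent noise and with changes planted in probe sets of below-median spread. That run does not cover shared array effects or members with a large spread. Probe sets were named by GEO's platform table, in which 41091 name 1 gene, 1801 several and 11721 none, and all 36 member symbols matched RefSeq by gene ID. The members, lists and the log2 level of 3 were chosen with earlier results of these data known, so no list was tested.

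Genes named were CXCL8 and CCL2, ligand genes with a group mean above 3, ligand genes with the groups apart, the 5 highest and 5 lowest differences, all other ligands by value or range, and of the other lists the genes past the threshold or with the groups apart, with CXCR1, CXCR2, CCR2 and CXCR4. Whether replicate numbers pair the samples is not stated in the labels. The numbers were taken as pairs. Deviations from the group mean correlated between same-numbered arrays at 0.874, 0.599 and 0.672 over probe sets, all above a preset level of 0.1. For numbers 2 and 3 that level was no test, as the swapped pairs passed it too. DMSO replicate 3 correlated at 0.695 with Vorinostat replicate 2, which is above both same-numbered values of 2 and 3. DMSO replicate 2 correlated at 0.594 with Vorinostat replicate 3. These values set number 1 apart but cannot tell how the arrays of 2 and 3 pair. The pairs 2 and 3 thus rest on the sample titles alone. Alternatives were the replicate block, quantile normalisation, median centring, a filter on dim probe sets, leaving out arrays, the methods' t-test and the mean over a gene's probe sets.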

Additional observations from a re-analysis of the deposited data

How the results depend on the processing

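Ligand genes past the threshold of the study, 0 in either direction, became 1 higher (CCL5) with the replicate block and 1 after quantile normalisation, which also gave 1 gene with the groups apart and higher. The block changed no other ligand call. Averaging the probe sets of a gene gave 1 gene apart and lower. Over all probe sets, 9 higher and 15 lower became 52 and 175 with the block, 46 and 71 after quantile normalisation, 3 and 2 by the methods' t-test, and 0 and 1 among probe sets with a mean above 3, where the median of the ligands was 0.65 and of the receptors -0.145, with fewer genes tested. CCL2, CXCL11 and the other low members give no value there.
Without both arrays of number 1, probe sets past the threshold were 83 higher and 205 lower. Ligand genes apart were then 5 higher and 2 lower, but groups of 2 arrays lie apart more readily than groups of 3. CXCL1 turned to -0.13, CXCL11 to -0.25, CX3CL1 to 0.019 and CXCL3 to 0.018, while CXCL8 was 0.24, CCL5 1.09 and CCL2 0.065.
Leaving out 1 array at a time gave 0 ligand genes past the threshold, 0 to 2 apart in each direction, ligand medians of 0.020 to 0.077, receptor medians of -0.11 to 0.034 and 5 to 99 higher and 0 to 141 lower probe sets. CXCL8 ranged from -0.21 to 1.22, CXCL1 from -0.86 to 0.88, CXCL11 from -0.26 to 1.72, CCL19 from -0.34 to 0.22, CCL25 from -0.33 to 0.068 and CCL27 from -0.26 to 0.046, each turning in sign, whereas CCL5 stayed between 0.41 and 2.17 and CCL2 between 0.04 and 1.04. The share of all genes apart was not counted with arrays left out or probe sets averaged. Those counts of ligand genes apart are therefore no result about the ligands. Signal near the bottom of the scale limits what can be read from 30 of the 36 genes.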

Other observations

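Other inflammatory cytokine genes and the proteases that trim chemokines were listed beside the ligands. Of 12 cytokine genes measured, 7 were positive and 5 negative, and 0 passed the threshold of the study by limma. IL1B read 5.41, 3.38 and 3.14 with DMSO and 4.56, 3.49 and 3.15 with Vorinostat, a difference of -0.24 (standard error 0.72). TNF, which activates NF-κB, had a difference of 0.40 (standard error 0.729) with overlapping groups. IL1RN, an antagonist of interleukin 1 signalling chosen after its values were seen, was higher in each number, with 4.31, 1.57 and 1.35 under DMSO and 5.88, 1.96 and 2.20 under Vorinostat. IL10 lay apart between the groups, but no array exceeded 1.65.

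Of 11 protease genes, CTSG, a neutrophil granule protease, was lower in each number, with 9.76, 7.90 and 7.90 under DMSO and 9.45, 6.11 and 6.76 under Vorinostat, and it too was chosen after its values were seen. Its difference of -1.08 (standard error 1.029, limma adjusted p = 1) did not pass the study's threshold, but did with the replicate block (standard error 0.311, unadjusted p = 0.0242, adjusted p = 0.887 from limma). ELANE, the neutrophil elastase that the study lists as decreasing on these samples, had a difference of -2.04 (standard error 1.391), with -1.07, -4.23 and -0.83 within numbers 1, 2 and 3. MMP9, a gelatinase, had the groups apart with a difference of 0.50 (standard error 0.213, limma adjusted p = 1) and both means under 3. MMP1, a collagenase, read 4.82 on Vorinostat replicate 1 and between 1.25 and 1.53 on the other 5 arrays.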
